A study of Saccharomyces cerevisiae with 9 samples.

Results

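The autophagy genes and the vacuolar proteases of budding yeast (Saccharomyces cerevisiae) were followed in cells recovering from a freeze. The genes were chosen by name: every gene with an ATG symbol and number in the probe annotation of both array platforms, together with PEP4, PRB1, PRC1, CPS1, APE3, AMS1, PAI3 and PBI2. This gave 42 genes of the 5189 present on both platforms, of which 36 were ATG genes and 6 were PEP4, PRC1, CPS1, APE3, AMS1 and PBI2. PRB1, PAI3 and ATG44 were not among the genes with an annotated spot of their own on both platforms and were not analysed here. ATG6 and ATG24 are annotated on the arrays as VPS30 and SNX4 and so were not taken by the naming rule.

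The recovering cells were strain S288C, a haploid laboratory strain, grown in rich YPD medium at 30 °C to an absorbance (A660) of 1.0, kept at -80 °C for 1 week without a cryoprotectant and thawed at 30 °C over 25 min. They were incubated further and collected when 15, 30 or 60 min had passed since the end of thawing. The comparison was with cells of the same kind of culture taken before freezing. Each of the 3 time points had 3 arrays of 2 channels, described in the series as independent biological samples, with Cy5 on the recovering cells, Cy3 on the cells before freezing, and no dye swap. Whether arrays shared a culture or a control sample is not stated in the labels.

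All values below are log2 ratios of recovering cells over cells before freezing, so that 1 unit is a 2-fold difference in relative mRNA abundance. The direction is read from the labels, which name each array for its recovering sample in channel 1, and all signs would be opposite for a ratio formed in the other direction. A ratio gives no level of a gene in either population, and fewer cells holding an mRNA cannot be told apart from less of it per cell. "Passed" means an adjusted p under 0.05 in limma after Benjamini-Hochberg adjustment over all genes tested, where a gene was tested if all 3 arrays of each time point had a value.

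Autophagy carries cytoplasm and organelles to the vacuole, the lytic compartment of yeast. The Atg1 kinase complex starts it, Atg9 vesicles and a phosphatidylinositol 3-kinase build the membrane, and a ubiquitin-like conjugation system attaches Atg8 to lipid on that membrane. Receptor proteins select cargo such as mitochondria, peroxisomes or the hydrolases of the cytoplasm-to-vacuole targeting (Cvt) pathway, which uses the same machinery in growing cells to deliver aminopeptidase I and alpha-mannosidase. In the vacuole, proteinase A (PEP4) activates the other proteases, which degrade the delivered material, and the resulting amino acids are exported. In yeast the pathway is best known for the response to nitrogen starvation.

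At 60 min 7 of the 16 tested genes passed as higher than before freezing, against 15.6% of all genes tested. They were the proteases APE3, PEP4 and PRC1, the protease inhibitor PBI2, the Cvt receptor ATG19, the mitophagy gene ATG33 and the vacuolar carboxypeptidase gene ATG42. These genes were higher by 1.92-fold (PEP4) to 4.53-fold (APE3). No gene of the group passed as lower, against 17.5% of all genes. At 15 min ATG19 was the 1 of 11 tested genes that passed as higher (0.838% of all genes), and at 30 min ATG19 and APE3 were 2 of 19 (2.29% of all genes). On the arrays of 60 min, replicate 1 held the highest value of all 7 genes that passed and of 13 of the 16 tested. Among all genes that passed as higher at 60 min, 35.8% were highest on replicate 1. That array is on the other design from replicates 2 and 3 and had the widest spread of log2 ratios (SD 1.02, against 0.980 and 0.674). Without it 4 of the 7 (APE3, ATG19, ATG33 and PBI2) passed, and no other gene of the 27 then tested, against 310 of 3596 genes in all. The part of that array in the other values was not tested.

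**Figure D1:**
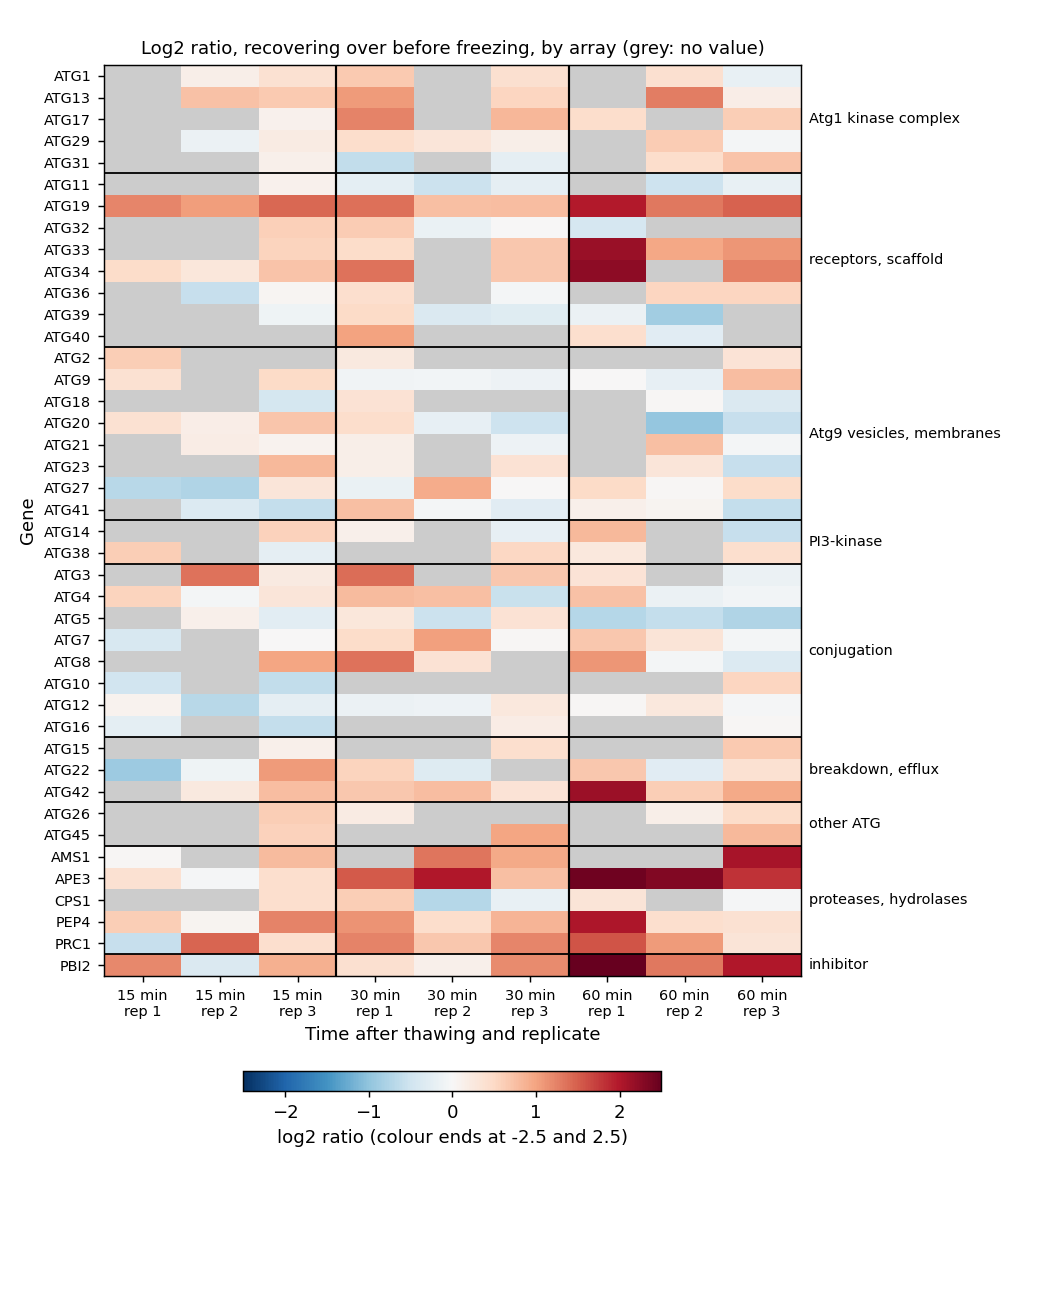
Log2 ratio (recovering cells over cells before freezing) of each of the 42 genes, in rows grouped by role, on each of the 9 arrays, in columns ordered by time after thawing and replicate. Red is higher and blue lower in recovering cells, and grey marks an array with no value. The rows of ATG19 and, at 60 min, of APE3 and PBI2 are red on every array, and grey cells are spread over most rows.

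Values were missing for many of these genes. Of the 42 genes, 8 had a value on all 9 arrays. At 15 min 11 genes (26.2%) had all 3 values, against 41.4% of all genes. The shares were 45.2% against 64.0% at 30 min and 38.1% against 56.9% at 60 min. ATG40 had no value at 15 min and ATG10 none at 30 min. The arrays themselves held between 18 and 40 of the 42 genes, and between 2765 and 5772 of their 6272 spots had a value. Why a spot has no value is not given in the sources used here, so the tested genes cannot be taken as a random sample of the group. Of the 2 array designs, one carried replicate 1 of each time point and the other replicates 2 and 3. Across genes, all 36 pairs of arrays correlated positively (r from 0.0858 to 0.705).

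Of the 6 genes for vacuolar proteases, hydrolases and their inhibitor, 4 were tested at 60 min and all 4 passed as higher, against 15.6% of all genes. The calls of PEP4 and PRC1 were lost without replicate 1. APE3, which encodes vacuolar aminopeptidase Y, had log2 ratios of 0.38, -0.03 and 0.41 at 15 min. At 30 min its values were 1.53, 2.00 and 0.76, and at 60 min they were 2.43, 2.31 and 1.81. Every array at 30 and 60 min lay above every array at 15 min, and the lowest value at 60 min was below the highest at 30 min. Its mean was 1.43 ± 0.29 at 30 min (SE, n = 3 arrays, 2.69-fold, limma adjusted p = 0.00284) and 2.18 ± 0.29 at 60 min (SE, n = 3 arrays, 4.53-fold, limma adjusted p = 3.89e-06). Without replicate 1 or replicate 2 of 30 min the 30 min mean no longer passed (1.38, limma adjusted p = 0.0712, and 1.14, limma adjusted p = 0.134). The 60 min mean passed whichever array was left out.

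PBI2 encodes the cytoplasmic inhibitor of proteinase B, a small protein that also takes part in vacuole fusion. It had values of 1.21, -0.36 and 0.88 at 15 min and 0.40, 0.12 and 1.19 at 30 min. At 60 min the values were 2.67, 1.33 and 2.00, all above every earlier value. The mean at 60 min was 2.00 ± 0.32 (SE, n = 3 arrays, 4.00-fold, limma adjusted p = 4.78e-05), and it passed whichever array was left out. The means of 0.58 at 15 min and 0.57 at 30 min did not pass. The protease that this inhibitor acts on, encoded by PRB1, was not analysed here.

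PEP4 encodes proteinase A, the aspartyl protease that activates the other vacuolar hydrolases. Its values were 0.61, 0.06 and 1.24 at 15 min, 1.12, 0.44 and 0.84 at 30 min, then 2.02, 0.43 and 0.37 at 60 min. All 9 were above 0, but at 60 min replicate 1 stood well above the other two. The mean at 60 min was 0.94 ± 0.32 (SE, n = 3 arrays, 1.92-fold, limma adjusted p = 0.0240). Without replicate 1 it was 0.40 and did not pass (limma adjusted p = 0.422). The means of 0.64 at 15 min and 0.80 at 30 min did not pass either (limma adjusted p = 0.294 and 0.150).

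PRC1 encodes carboxypeptidase Y, a vacuolar serine carboxypeptidase. It had values of -0.58, 1.45 and 0.42 at 15 min, 1.24, 0.67 and 1.22 at 30 min, then 1.57, 1.07 and 0.32 at 60 min. The 15 min arrays disagreed in sign, and the 6 later arrays were all above 0. Its mean at 60 min was 0.98 ± 0.32 (SE, n = 3 arrays, 1.98-fold, limma adjusted p = 0.0212). That call was lost without replicate 1 (0.69, limma adjusted p = 0.215) and without replicate 2 (0.94, limma adjusted p = 0.0936). At 30 min the mean was 1.04 ± 0.32 and lay just outside the threshold (SE, n = 3 arrays, limma adjusted p = 0.0583).

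AMS1 and CPS1 had too few values for a test at 60 min. AMS1 encodes the vacuolar alpha-mannosidase, a cargo of the Cvt pathway, and had values of 0.02 and 0.78 at 15 min (replicates 1 and 3), 1.33 and 0.94 at 30 min (replicates 2 and 3) and 2.06 at 60 min (replicate 3). All 5 were above 0. CPS1 encodes carboxypeptidase S, a vacuolar zinc peptidase delivered through endosomes. It had a value of 0.41 at 15 min (replicate 3), values of 0.61, -0.71 and -0.19 at 30 min, and values of 0.31 and -0.03 at 60 min (replicates 1 and 3). Its 30 min mean of -0.10 did not pass, and its arrays lay on both sides of 0.

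**Figure D2:**
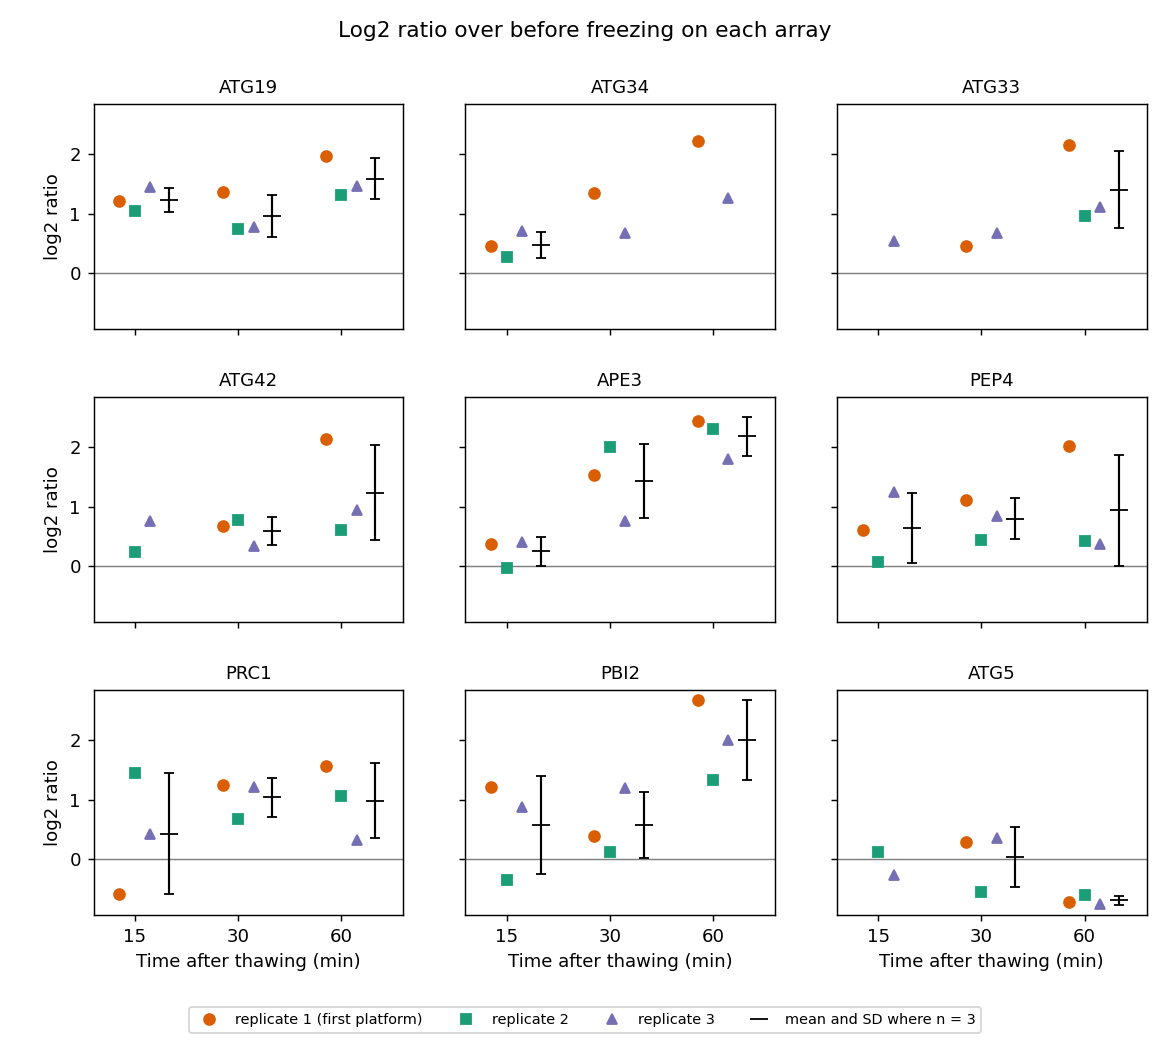
Log2 ratio (recovering cells over cells before freezing) against time after thawing in min for 9 genes, with a point for each array marked by replicate number, and the mean with its SD where all 3 arrays had a value. APE3 and PBI2 are highest at 60 min, ATG19 is above 0 at all 3 times, and replicate 1 at 60 min is the highest point for each gene that passed there, most clearly for ATG42, ATG33 and PEP4.

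Of the 8 receptor and scaffold genes, 2 were tested at 60 min and both passed as higher, ATG19 of the Cvt pathway and ATG33 of mitophagy. Over all genes 15.6% passed as higher, and 2 tested genes are too few to be set against that share. ATG19 encodes the receptor that brings the Cvt cargo aminopeptidase I and alpha-mannosidase to the forming vesicle. Its values were 1.21, 1.05 and 1.44 at 15 min, 1.37, 0.75 and 0.77 at 30 min, then 1.97, 1.31 and 1.47 at 60 min. All 9 arrays were above 0, the lowest at 0.75, and the 3 time points overlapped. Its mean was 1.23 ± 0.28 at 15 min (SE, n = 3 arrays, 2.35-fold, limma adjusted p = 0.0182). After 30 min it was 0.96 ± 0.28 (SE, n = 3 arrays, 1.95-fold, limma adjusted p = 0.0408), and after 60 min 1.59 ± 0.28 (SE, n = 3 arrays, 3.00-fold, limma adjusted p = 0.000107). The 60 min call stood whichever array was left out. The calls at 15 and 30 min were lost without any 1 of the 3 arrays, with means of 1.13 to 1.33 at 15 min and 0.76 to 1.07 at 30 min.

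ATG34 encodes a second receptor for alpha-mannosidase, related in sequence to Atg19, and lies next to ATG19 in the RefSeq annotation of the R64 assembly. It was singled out after its values were seen, because it passed when 2 arrays per time point were enough. It had values of 0.45, 0.28 and 0.71 at 15 min, 1.35 and 0.67 at 30 min, then 2.23 and 1.27 at 60 min, with replicate 2 missing at both later times. All 7 were above 0, and both 60 min values were above all 3 at 15 min. On 2 arrays its 60 min mean was 1.75 ± 0.36 (SE, limma adjusted p = 0.000822, and 0.000853 in the fit without replicate 2). Whether the spots of the 2 related genes cross-hybridize was not tested.

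ATG33 encodes a mitochondrial outer membrane protein that takes part in mitophagy. It had values of 0.55 at 15 min (replicate 3), 0.46 and 0.67 at 30 min (replicates 1 and 3) and 2.15, 0.96 and 1.11 at 60 min. All 6 were above 0 and the 3 values at 60 min were the highest. The 60 min mean was 1.41 ± 0.30 (SE, n = 3 arrays, 2.65-fold, limma adjusted p = 0.000944) and passed whichever array was left out. The mitophagy receptor itself, ATG32, had 0.60 at 15 min (replicate 3), 0.64, -0.16 and 0.01 at 30 min and -0.41 at 60 min (replicate 1), and its 30 min mean of 0.16 did not pass. The scaffold ATG11, which links receptors to the Atg1 kinase, was below 0 on all 3 arrays at 30 min with a mean of -0.33 that did not pass (limma adjusted p = 0.580). At 60 min ATG11 had -0.51 and -0.18 (replicates 2 and 3). The pexophagy receptor ATG36 had 0.54 and 0.53 (replicates 2 and 3). ATG39, the receptor for nucleus and perinuclear endoplasmic reticulum, had -0.15 and -0.87 (replicates 1 and 2). ATG40, a receptor for other endoplasmic reticulum, had 0.42 and -0.28 (replicates 1 and 2). With 2 arrays as the minimum, ATG11, ATG36, ATG39 and ATG40 did not pass at 60 min, and ATG32 had too few values to be tested.

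ATG42 encodes a vacuolar serine carboxypeptidase related to carboxypeptidase Y and acts in the last step, the breakdown of the delivered material. Its values were 0.24 and 0.77 at 15 min (replicates 2 and 3), 0.68, 0.77 and 0.33 at 30 min, then 2.13, 0.62 and 0.95 at 60 min. All 8 were above 0, with replicate 1 at 60 min the highest. The 60 min mean was 1.23 ± 0.30 (SE, n = 3 arrays, 2.35-fold, limma adjusted p = 0.00288). It no longer passed without replicate 1 (0.78, limma adjusted p = 0.101). ATG22, a vacuolar membrane protein linked to amino acid export, had values of -0.91, -0.10 and 1.06 at 15 min, 0.56 and -0.33 at 30 min, then 0.67, -0.28 and 0.38 at 60 min, with a 60 min mean of 0.26 that did not pass. ATG15, the vacuolar lipase that opens the delivered vesicles, had 0.13, 0.42 and 0.65 on replicate 3 of the 3 times in order and no other value.

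The machinery that forms the autophagosome has 4 roles here. These (the Atg1 kinase complex, Atg9 vesicles and membrane transfer, the Atg subunits of the PI3-kinase, and the conjugation system) held 23 genes, of which 4 were tested at 15 min, 9 at 30 min and 8 at 60 min, and 0 passed. Over all genes, 0.838% passed as higher and 0.326% as lower at 15 min, 2.29% and 2.05% at 30 min, then 15.6% and 17.5% at 60 min, so that 0 calls among so few genes is near the background at 15 and 30 min. At 60 min their means lay between -0.69 (ATG5) and 0.33 (ATG27). A miss at this number of arrays does not show that these genes were unchanged.

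In the conjugation system, 5 of 8 genes were tested at 60 min and 0 passed, against 15.6% higher and 17.5% lower over all genes. ATG5, part of the Atg12-Atg5-Atg16 complex that helps attach Atg8 to lipid, had values of 0.12 and -0.27 at 15 min (replicates 2 and 3), 0.29, -0.55 and 0.36 at 30 min, then -0.71, -0.60 and -0.75 at 60 min. The 60 min arrays were close together (SD 0.078, n = 3) and all below every earlier array. The mean of -0.69 ± 0.28, a ratio of 0.620, did not pass (SE, n = 3 arrays, limma adjusted p = 0.0591). With the replicate number as a block it did (limma adjusted p = 0.0310), and over all alternatives tried the adjusted p ranged from 0.0310 to 0.164. ATG7, the activating enzyme of both conjugation reactions, had -0.40 and 0.01 at 15 min (replicates 1 and 3), 0.46, 1.02 and 0.03 at 30 min and 0.67, 0.32 and -0.04 at 60 min. Its 60 min mean of 0.31 did not pass (limma adjusted p = 0.415). ATG8, whose product marks the autophagosome membrane and is widely used to follow autophagy, had 0.98 at 15 min (replicate 3), 1.35 and 0.35 at 30 min (replicates 1 and 2), then 1.11, -0.04 and -0.34 at 60 min. The arrays at 60 min lay on both sides of 0, and the mean of 0.24 ± 0.31 had a 95% confidence interval from -0.41 to 0.89 (SE, n = 3 arrays).

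Among the 8 genes of Atg9 vesicles and membrane transfer, 3 were tested at 60 min and 0 passed, too few to be set against those shares. ATG27, which takes part in Atg9 transport, had values of -0.69, -0.76 and 0.30 at 15 min, -0.16, 0.93 and 0.02 at 30 min, then 0.48, 0.04 and 0.46 at 60 min. ATG41, whose product binds Atg9, had -0.34 and -0.60 at 15 min (replicates 2 and 3), 0.75, -0.05 and -0.28 at 30 min, then 0.12, 0.06 and -0.59 at 60 min. Neither gene kept to one side of 0 over the series, and their 60 min means of 0.33 and -0.14 did not pass. None of the 5 genes of the Atg1 kinase complex and neither PI3-kinase subunit gene (ATG14 and ATG38) had 3 values at 15 or 60 min. ATG29 was the 1 of these 7 genes tested at 30 min, with a mean of 0.29 that did not pass.

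At an unadjusted p under 0.05, 7 of the 16 tested genes of the group were higher at 60 min and 1 lower (ATG5), against 596 higher and 693 lower of 2952 genes in all. Among those tested, the median log2 ratio of the group was 0.42 at 15 min, 0.26 at 30 min and 0.32 at 60 min, against -0.05, -0.08 and -0.06 over all genes. These counts and medians cover the genes with 3 values, not the whole group.

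**Figure D3:**
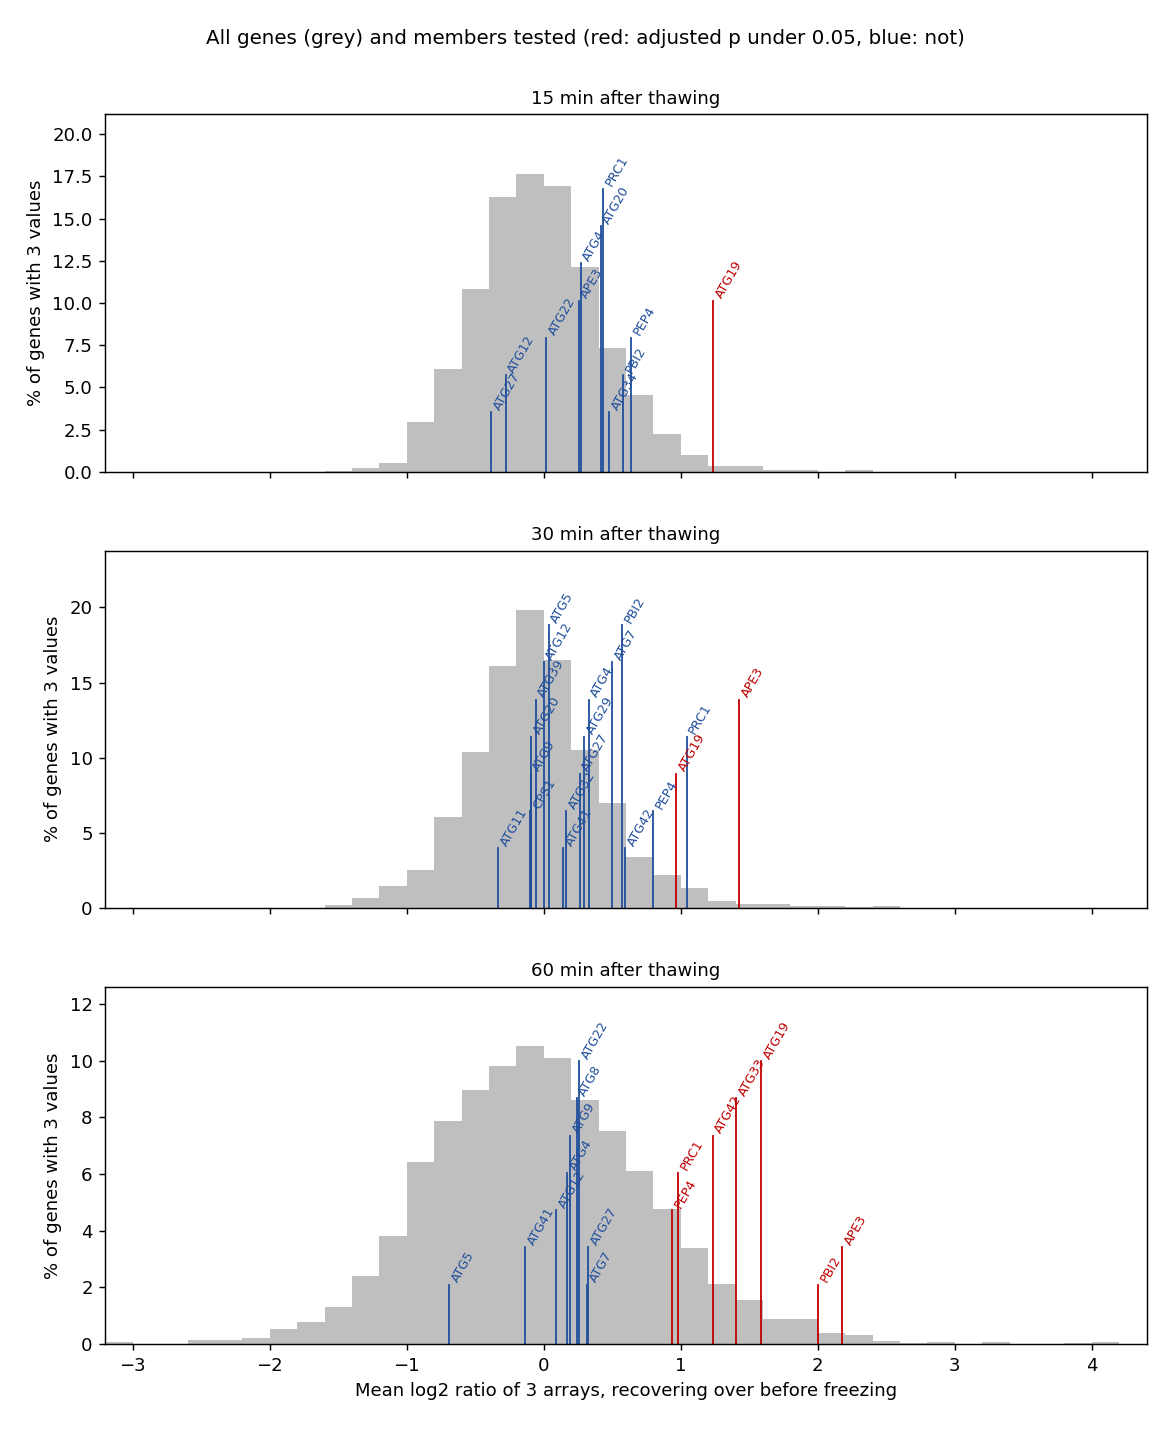
Percent of genes (vertical axis) by mean log2 ratio (horizontal axis) for all genes with 3 values at 15, 30 and 60 min, with a tick for each tested autophagy or protease gene, red where it passed and blue where it did not. The red ticks number 1, 2 and 7 and lie to the right of most genes.

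When every gene with any value was counted, 31 of 41 genes of the group had a mean above 0 at 15 min, 33 of 41 at 30 min and 34 of 42 at 60 min. Many of these means rest on 1 array. At 15 min replicate 3 held a value for 40 genes of the group, against 18 on replicate 1 and 20 on replicate 2. Of all genes with any value, 51.4%, 49.7% and 51.4% were above 0. The medians of the group were 0.27, 0.33 and 0.31. Genes with all 3 arrays above 0 numbered 4 of 11 at 15 min (15.1% of all genes), 8 of 19 at 30 min (19.3%) and 8 of 16 at 60 min (26.8%). Those with all 3 below 0 numbered 0 at 15 min (20.8% of all genes), 2 at 30 min (25.5%) and 1 at 60 min (32.6%). With 2 arrays per time point as the minimum, 35 genes could be tested at 60 min and 8 passed as higher, against 12.4% of all genes, which added ATG34 to the 7. None passed as lower, against 13.2% of all genes. The same minimum let 26 genes be tested at 15 min, of which ATG19 passed as higher (0.593% of all genes) and 0 as lower (0.141%). It let 33 be tested at 30 min, of which ATG19 and APE3 passed as higher (2.15%) and 0 as lower (1.47%). With the replicate number as a block the 60 min count was again 7 higher, against 19.5% of all genes, with ATG5 as 1 lower, against 22.2%. At 30 min the block gave 4 higher (5.54% of all genes) with PEP4 and PRC1 added, and 0 lower (6.08%).

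Between time points, APE3 differed beyond its spread. Its ratio was higher at 60 min than at 15 min by 1.93 ± 0.41 (SE, 3.80-fold, 95% confidence interval 1.10 to 2.76, limma adjusted p = 0.00903). It was the 1 gene of 9 tested that passed as higher in this comparison, against 2.41% of all genes, and 0 passed as lower, against 3.37%. The call was lost without replicate 1 (1.86, limma adjusted p = 0.107) and without replicate 2 (1.72, limma adjusted p = 0.0693) of both times. It was also lost when all arrays were set to one spread (1.45, limma adjusted p = 0.102). The difference of PBI2 between the same times was 1.42 ± 0.45 and did not pass (SE, limma adjusted p = 0.0565). With the replicate block it did (limma adjusted p = 0.00704), so that APE3 and PBI2 were 2 higher, against 7% of all genes, with 0 lower, against 8.55%. Over all alternatives the adjusted p of PBI2 ranged from 0.00704 to 0.331. ATG19 differed by 0.35 between these times, with a 95% confidence interval from -0.45 to 1.15 that includes 0.

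Between 60 and 30 min, 0 of 13 genes of the group passed as higher (0% of all genes) and 0 as lower (0.0407% of all genes) by limma, and 1 was higher at an unadjusted p under 0.05, as were 137 of all 2457 genes tested. That gene was PBI2, higher at 60 min by 1.43 ± 0.45 (SE, limma adjusted p = 0.286). Same-numbered arrays of these 2 times deviated together, which the main fit does not take into account. With the replicate number as a block PBI2 passed (limma adjusted p = 0.0359). In that fit 18 genes of all those tested were higher at 60 min (0.733%) and 15 lower (0.611%), in place of 0 and 1. APE3 differed by 0.75 between these times and did not pass (limma adjusted p = 0.523). Between 30 and 15 min, 0 of 9 genes passed by limma in either direction (0% of all genes in each), and 1 was higher at an unadjusted p under 0.05, as were 28 of all 1853 genes tested. It was APE3, higher at 30 min by 1.17 ± 0.41 (SE, limma adjusted p = 0.972). These contrasts share arrays with one another and with the single time points.

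From 8 lists of genes that work beside autophagy, 98 genes were on the arrays and 56 had 3 values at 60 min, of which 13 passed as higher and 8 as lower. Over all genes the shares were 15.6% and 17.5%. Their median was -0.03, against -0.06 over all genes. At 15 and 30 min 0 of the 36 and 62 tested genes passed by limma, with 2 and 7 at an unadjusted p under 0.05. Of the 21 genes that passed at 60 min, 9 still passed without replicate 1, 4 without replicate 2 and 15 without replicate 3. AVT7 and VMA8 were the 2 that passed in each case, and any other gene of these lists named below lost its call without at least 1 of the 3 arrays.

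**Figure D4:**
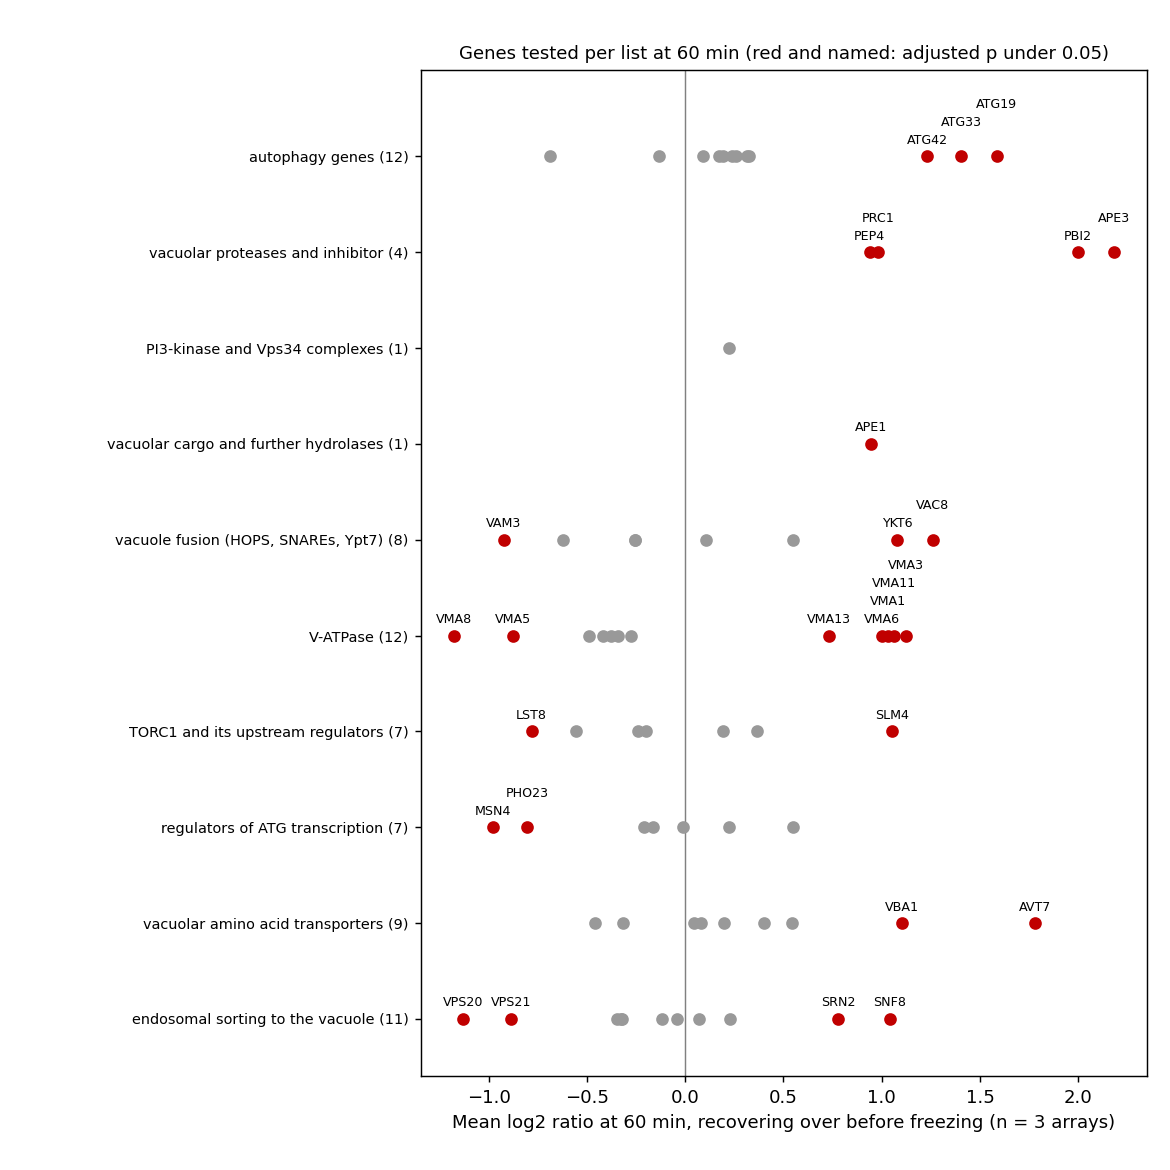
Mean log2 ratio at 60 min (recovering cells over cells before freezing, horizontal axis) of each gene with 3 values, in rows for the autophagy and protease genes and for the 8 lists of related genes. Named red points passed and grey points did not. Red points lie on the right only for the autophagy and protease genes, the vacuolar cargo list (1 gene, APE1) and the amino acid transporters. They lie on both sides for 4 lists, on the left only for the transcription regulators, and are lacking in the PI3-kinase list.

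APE1, which encodes aminopeptidase I, the main Cvt cargo and client of Atg19, had values of 1.55, 0.81 and 0.47 at 60 min. Its mean of 0.94 ± 0.29 passed (SE, n = 3 arrays, 1.92-fold, limma adjusted p = 0.0168). It did not pass without replicate 1 (0.64, limma adjusted p = 0.192) or without replicate 2 (1.01, limma adjusted p = 0.0518). The other 2 genes of its list had values on replicates 2 and 3 only at 60 min: PHO8, the vacuolar alkaline phosphatase, had -0.98 and -1.18, and DAP2, a vacuolar dipeptidyl aminopeptidase, -0.18 and 0.70. Both are named after their values were seen. With 2 arrays as the minimum PHO8 passed as lower (-1.08 ± 0.34, SE, limma adjusted p = 0.0212) and DAP2 did not pass. Of 9 transporters that move amino acids across the vacuolar membrane, 2 passed as higher and 0 as lower, a share not far from the 15.6% of all genes. AVT7 had values of 1.45, 2.82 and 1.08 and a mean of 1.78 ± 0.33 (SE, n = 3 arrays, 3.44-fold, limma adjusted p = 0.000206), and VBA1 had a mean of 1.10 (limma adjusted p = 0.0118) that did not pass without replicate 2 (0.57, limma adjusted p = 0.303).

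The V-ATPase is the proton pump that acidifies the vacuole. Of its 12 tested genes, 5 passed as higher and 2 as lower, against 15.6% and 17.5% of all genes. The count of higher genes was 1 without replicate 1, 0 without replicate 2 and 2 when all arrays were set to one spread, and that of lower genes was 1 or 2 in these fits. VMA3 (1.12, and 0.72 without replicate 2) and VMA11 (1.06), which encode subunits of the membrane ring, were among those higher. So was VMA1 (1.03), which encodes a subunit of the peripheral catalytic sector. VMA8 (-1.18), of the same sector as VMA1, was 1 of the 2 lower. The ring gene VMA16, named after its value was seen, had a mean of -0.49 that did not pass. Both passed ring genes were thus higher, and the 2 sector genes named went in opposite directions. The call of VMA1 was lost without replicate 2 (0.39, limma adjusted p = 0.502) and without replicate 3 (1.105, limma adjusted p = 0.0611). VMA8 had values of -1.35, -0.53 and -1.65 on the 3 arrays. The median of the 12 was -0.31.

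For the counts that follow, 15.6% of all genes passed as higher and 17.5% as lower at 60 min, and each list had few tested genes. Of 8 tested genes of vacuole fusion, VAC8 (1.26) and YKT6 (1.08) passed as higher and the SNARE gene VAM3 (-0.92) as lower. Of 11 genes of endosomal sorting, SNF8 (1.04) and SRN2 (0.78) passed as higher and VPS20 (-1.13) and VPS21 (-0.89) as lower. TORC1 is the kinase complex that holds autophagy down in well-fed cells. Of 7 tested genes of TORC1 and its regulators, SLM4 (1.06) passed as higher and LST8 (-0.78), a TORC1 subunit, as lower. LST8 did not pass without any 1 of the 3 arrays, nor with centring, a platform term, one spread for all arrays or the 60 min arrays alone. Of 7 regulators of ATG gene transcription, 0 passed as higher and 2 as lower, PHO23 (-0.81), which encodes a subunit of a histone deacetylase complex that represses ATG9, and MSN4 (-0.98), a stress-response activator. PHO23 did not pass without any 1 of the 3 arrays, MSN4 passed in 1 of these 3 fits (that without replicate 2), and neither passed with one spread for all arrays or the 60 min arrays alone. The 1 tested gene of the wider PI3-kinase list did not pass (0.22).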

How the data were processed

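Messenger RNA of recovering cells and of cells before freezing was hybridized together on 9 two-channel arrays. Per the labels, the authors applied LOWESS normalization using spots with flag value 0, and the deposited values are log2 ratios, whose lowest value is the log2 of 0.01. The sources used here do not give the scanner, the background correction or the reasons for missing values. Missing values were not filled in, and precision is limited by having 3 arrays for each time. Channel intensities were not used here.

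One limma fit (version 3.58.1, R 4.3.3) covered the 9 arrays, with a mean per time point and no platform or replicate term. Means were tested against 0 and against each other, two-sided, with Benjamini-Hochberg adjustment over all genes tested. Each gene has one moderated spread over all times, which gives its standard error, and the p-values measure the spread between these samples only. The fit was tested on simulated data. The genes and gene lists were chosen with earlier results of these data known. Values on every array are given for genes that passed, for the proteases and their inhibitor, and for the highest and lowest tested gene of each role at 60 min. ATG8, ATG11, ATG15, ATG32, ATG34, ATG36, ATG39 and ATG40 were added after their values were seen. At most 4 passed genes are named per other list. All 42 symbols matched the RefSeq R64 annotation, used for names and neighbours only, and each gene had 1 spot per platform.

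Same-numbered arrays were checked for pairing through the correlation of their deviations from the time means. It was 0.164 to 0.440 for 60 against 30 min, 0.0165 to 0.487 for 60 against 15 min and 0.0360 to 0.160 for 30 against 15 min. The main fit took no account of pairing in any comparison, that of 60 against 30 min included. The replicate block was run as an alternative for each comparison. The labels do not say that a number marks a shared culture. Alternatives were 2 arrays per time point as the minimum, arrays set to one median absolute deviation, centring on the median, the replicate block, a platform term, only the arrays of the times compared, the lowest value as missing, array weights, and leaving out each replicate.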

Additional observations from a re-analysis of the deposited data

Results flagged for a closer look

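APE3 (vacuolar aminopeptidase Y) differed between 60 and 15 min by 1.93, a difference that was itself tested (limma adjusted p = 0.00903). Over all alternatives the adjusted p ranged from 0.000342 to 0.107.

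For 3 other genes every array of one time lay on the opposite side of 0 from every array of another, and the difference was not tested with all 3 arrays because values were missing. ATG20, a sorting nexin, had -0.97 and -0.57 at 60 min (replicates 2 and 3) and 0.39, 0.16 and 0.70 at 15 min, a difference of -1.19 that did not pass with 2 arrays as the minimum (limma adjusted p = 0.134). ATG31, a subunit of the Atg1 kinase complex, had 0.44 and 0.72 at 60 min (replicates 2 and 3) and -0.61 and -0.23 at 30 min (replicates 1 and 3), a difference of 1.00 (limma adjusted p = 0.582 with 2 arrays as the minimum). ATG9, the transmembrane protein of the vesicles that seed the autophagosome, had -0.08, -0.07 and -0.13 at 30 min and 0.38 and 0.47 at 15 min (replicates 1 and 3), a difference of -0.52 (limma adjusted p = 0.987 with 2 arrays as the minimum).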

How the results depend on the processing

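Of the 7 genes higher at 60 min, APE3, PBI2, ATG19 and ATG33 passed under each alternative tried, with and without each array. Without replicate 1 the count was 4 of 27 genes tested, against 310 of 3596 over all genes. Without replicate 2 it was 7 of 22 (267 of 3327 over all genes) and without replicate 3 it was 7 of 18 (450 of 3208). Under the other alternatives the count was 5 to 8, the lowest being 5 of 16 with one median absolute deviation (260 of 2952) and with array weights (335 of 2952). At 15 min it was 0 to 0 in place of 1 without a replicate, and at 30 min 0 to 1 in place of 2. At 30 min it was 4 with the replicate block (adding PEP4 and PRC1) and 5 with array weights (adding PBI2 too). Between 60 and 15 min it was 0 with one median absolute deviation, 2 with the replicate block (adding PBI2), and 0 to 1 without a replicate. With the replicate block 1 gene (ATG5) was lower at 60 min in place of 0, and 1 (PBI2) was higher between 60 and 30 min in place of 0.

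At 60 min PEP4 also failed to pass with one median absolute deviation (0.72), the 60 min arrays alone (adjusted p = 0.0629) and array weights (0.84), and PRC1 with one median absolute deviation (0.75) and array weights (0.86). The replicate block ended no call of these genes. Over all genes, 461 were higher and 518 lower at 60 min, against 260 and 277 with one median absolute deviation and 267 to 450 and 282 to 397 without a replicate. At 30 min 76 and 68 became 184 and 202 with the replicate block, 153 and 182 with one median absolute deviation, 159 and 154 with the 30 min arrays alone and 244 and 412 with array weights, and at 15 min 18 and 7 became 88 and 73, 35 and 16, and 38 and 10 under the first 3 of these (the 15 min arrays alone for the third), and 12 and 2 with centring on the median. Without a replicate they were 19 to 62 and 3 to 26 at 30 min, and 5 to 9 and 0 to 3 at 15 min. Between 60 and 15 min 45 and 63 became 0 and 1 with one median absolute deviation, 25 and 33 with centring, 23 and 40 with array weights, 27 and 42 with the arrays of these times alone, 131 and 160 with the replicate block, and 1 to 34 and 4 to 28 without a replicate.

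Signs turned for values that passed nowhere. ATG5 at 30 min ranged from -0.13 to 0.33 without a replicate (0.04 with all), ATG22 at 15 min from -0.51 to 0.48 (0.02), ATG27 at 30 min from -0.073 to 0.47 (0.26), and ATG41 from -0.16 to 0.35 at 30 min (0.14) and from -0.27 to 0.093 at 60 min (-0.14). CPS1 at 30 min ranged from -0.45 to 0.21 (-0.10) and PRC1 at 15 min from -0.077 to 0.93 (0.43). With array weights ATG22 at 15 min was -0.040 and ATG41 at 30 min -0.081, with a platform term CPS1 at 30 min was 0.027, and with one median absolute deviation the difference of ATG19 between 60 and 15 min was -0.15. The cause was not tested.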
